A study of Mus musculus with 29 samples.

Results

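Chemokine ligands are small proteins that attract leukocytes and stromal cells along a gradient, and 10 of their genes are described here: Ccl2, Ccl7, Ccl8, Ccl6, Ccl9, Cxcl1, Cxcl12, Cxcl14, Cxcl16 and Cx3cl1. They were taken by symbol from a table of 23420 genes of mouse heart RNA, and all 10 passed a filter on low counts that 13765 genes passed. The 29 libraries came from C57BL/6J mice with an age label of 12 weeks, in 4 genotypes and 2 conditions. The conditions were 4 weeks of transverse aortic constriction (TAC), in which a suture narrows the aortic arch and the left ventricle pumps against more pressure, and no stress. After TAC there were 4 libraries of combined ablation, 4 of germline PKCε knockout, 3 of postnatal cardiac PKCδ ablation and 4 of wild type. Without stress there were 4 libraries of combined ablation, 3 of PKCε knockout, 3 of PKCδ ablation and 4 of wild type. Combined hearts carry both losses, so their PKCε loss is germline. What drives the postnatal cardiac deletion of PKCδ is not given in the sources used here. Unstressed hearts carry no label of a sham operation, so an effect of TAC includes that of the operation. The tissue label reads whole heart, and the protocol names the ventricular apexes.

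Chemokines signal through G protein-coupled receptors and are held on cell surfaces by proteoglycans. In the loaded heart, Ccl2 and its neighbour Ccl7 are known for drawing Ccr2-bearing monocytes, and Cxcl1 for drawing neutrophils through Cxcr2. Cxcl12, made by stromal and endothelial cells, signals through Cxcr4 and is scavenged by Cxcr7 (Ackr3). Cx3cl1 (fractalkine) and Cxcl16 are anchored in the membrane, where they can hold leukocytes, and are shed by the proteases Adam10 and Adam17.

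The classes are named for the spacing of the first cysteines, and the coding stretch around them is printed for each ligand so that the groups used below can be seen. The capitals mark these cysteine codons, with 0 codons between them in the CC ligands, 1 in the CXC ligands and 3 in Cx3cl1. All are 5′ to 3′ in the sense of the gene, on GRCm38 with the GENCODE vM21 annotation, and the Cxcl14 stretch spans an intron.
Ccl2, chr11:82036491-82036526, plus strand: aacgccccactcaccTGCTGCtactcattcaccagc
Ccl7, chr11:82046523-82046558, plus strand: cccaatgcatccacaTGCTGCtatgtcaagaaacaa
Ccl8, chr11:82116041-82116076, plus strand: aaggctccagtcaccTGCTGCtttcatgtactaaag
Ccl6, chr11:83589371-83589406, minus strand: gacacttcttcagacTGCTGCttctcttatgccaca
Ccl9, chr11:83575911-83575946, minus strand: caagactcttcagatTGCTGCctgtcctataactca
Cxcl1, chr5:90891481-90891519, plus strand: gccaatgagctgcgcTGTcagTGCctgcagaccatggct
Cxcl12, chr6:117171493-117171531, plus strand: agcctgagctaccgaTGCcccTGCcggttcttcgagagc
Cxcl14, chr13:56295900-56296116, minus strand: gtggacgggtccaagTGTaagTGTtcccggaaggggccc
Cxcl16, chr11:70459112-70459150, minus strand: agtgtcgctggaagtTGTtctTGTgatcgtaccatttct
Cx3cl1, chr8:94778036-94778080, plus strand: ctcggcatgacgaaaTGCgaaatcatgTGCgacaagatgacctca

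The coding sequences of Cx3cl1 and Cxcl16, the membrane-anchored ligands, ran to 395 and 246 codons, against 96 (Cxcl1) to 148 (Ccl2) in the other 8. Ccl2, Ccl7 and Ccl8 lie on the plus strand of chromosome 11, in a span that begins at 82035571 and ends at 82116799, with Ccl8 farther along from the other two. Ccl9 (83572919 to 83578636) and Ccl6 (83587882 to 83593087) neighbour each other on its minus strand. The longest identical run between transcripts of any pair of these ligands was 25 bases, between Ccl6 and Ccl9, and the next was 23 bases, between Ccl2 and Ccl7. Of the Cxcl16 exon bases, 18.3% overlap Zmynd15 on the opposite strand, and since the libraries do not keep strand, reads there cannot be told apart.

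Counts assigned to genes ran from 10523709 to 17314739 per library, and levels are given as TMM-scaled counts per 1000000 (CPM). The labels do not link libraries to animals, so each n counts libraries and each p measures the spread between these libraries. Prkce (PKCε) stood at 8.21 to 10.97 CPM in combined TAC replicates 1, 3 and 4, but at 31.5 CPM in the library labelled combined TAC replicate 2. In wild-type TAC it stood at 24.0 CPM in replicate 2 and at 33.3 to 42.9 CPM in the others. Elsewhere Prkce matched the labels, at 6.59 to 10.8 CPM in PKCε knockout and combined unstressed libraries and 46.9 to 52.9 CPM in wild-type unstressed ones. Values without both of these libraries are given for ligand calls that rest on them, and where leaving both out changed the call of a ligand or named receptor. Prkcd was not lower in PKCδ-ablated unstressed hearts (16.3 to 18.7 CPM) than in wild-type unstressed hearts (13.4 to 15.9 CPM), and after TAC the groups overlapped (17.7 to 20.8 CPM in PKCδ-ablated and 20.5 to 28.0 CPM in wild-type hearts), so its level in whole tissue does not check that label. Summed Y-linked transcripts went against the sex label in 14 of 29 libraries, taking 1 CPM as the limit. The 6 libraries labelled female are all TAC libraries, so the sex label and TAC are partly confounded. Of the libraries labelled male, 10 were below that limit, including all 3 PKCδ-ablated unstressed libraries. All 3 PKCδ-ablated TAC libraries were above it (24.7 to 35.7 CPM). In PKCδ-ablated hearts an effect of TAC therefore cannot be told apart from one of sex as read from these transcripts. In combined hearts 3 of 4 libraries were below the limit after TAC, and 1 of 4 without stress.

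Cxcl12 was the most abundant of the 10 ligands in every library and made up 74.2% to 89.5% of their summed CPM. Per kilobase of exon, the mean level over all libraries was 41.7 CPM for Cxcl12, 13.2 CPM for Cxcl14, 5.44 CPM for Cx3cl1 and 3.76 CPM for Cxcl16. The length used is that of the merged exons of all coding transcripts of a gene, and the order depends on it. The other ligands were lower on the same per-kilobase scale: Ccl6 had 3.27 CPM, Ccl2 had 2.57 CPM, and Ccl7, Ccl8, Ccl9 and Cxcl1 had 0.793 to 1.35 CPM. Without length scaling, 6 of the 10 ligands (Ccl2, Ccl6, Ccl7, Ccl8, Ccl9 and Cxcl1) stayed under 10 CPM in every library. Ccl8 had between 0 and 25 reads in a library and Cxcl1 between 4 and 33, so counting error weighs most on these.

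**Figure D1:**
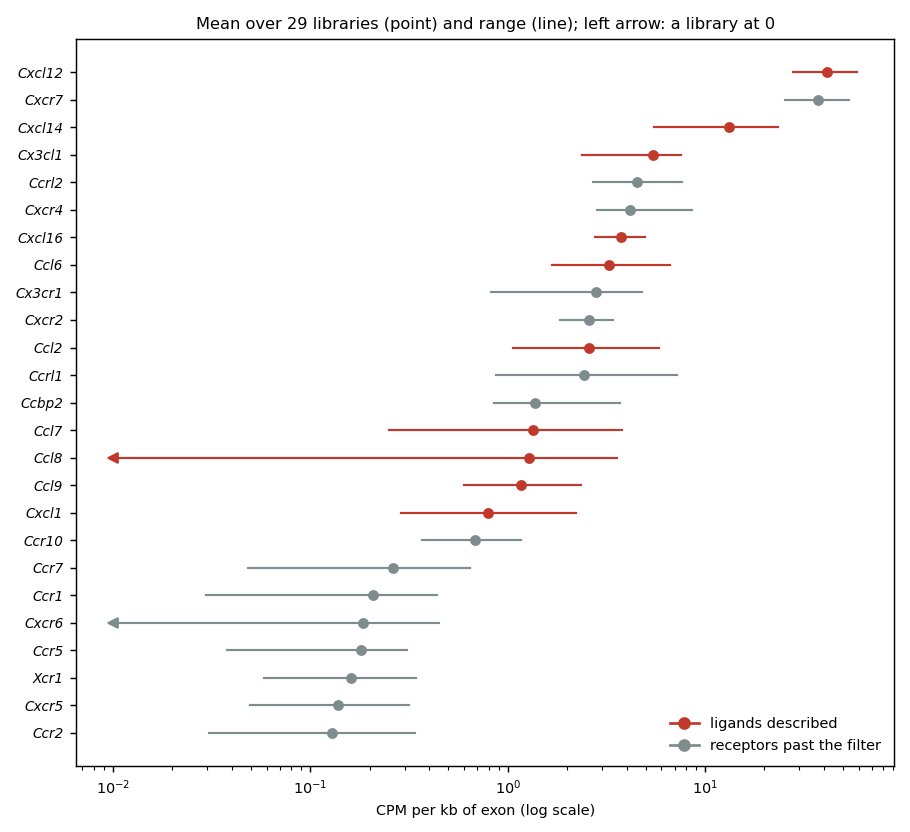
Mean level of each chemokine ligand and receptor in CPM per kilobase of exon over all 29 libraries, on a log axis. Cxcl12 leads the ligands with 41.7 CPM per kilobase and its scavenger Cxcr7 leads the receptors with 37.4.

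TAC raised 4 of the 10 ligands on average over the 4 genotypes: Ccl8, Cx3cl1, Cxcl16 and Ccl9. None fell. In the same comparison 56.9% of the 13765 genes were called (28.1% higher and 28.9% lower, edgeR's quasi-likelihood test, Benjamini-Hochberg adjusted p below 0.05), so this share of the ligands is below the share of all genes called. The median log2 fold change of the 10 ligands was 0.29, and that of all genes was -0.0036. The average log2 fold change was 1.48 ± 0.30 (SE) for Ccl8 (adjusted p = 9.58e-05), 0.49 ± 0.10 for Cx3cl1 (adjusted p = 0.000103), 0.31 ± 0.06 for Cxcl16 (adjusted p = 4.25e-05) and 0.43 ± 0.15 for Ccl9 (adjusted p = 0.0173). That of Cxcl12 was -0.11 ± 0.05 (adjusted p = 0.0573, and 0.0398 without the 2 doubted libraries, where the 4 calls were kept), and the other 5 had adjusted p-values up to 0.98.

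The calls are given here by genotype, and a call in 1 genotype and not in another does not show a difference between them. In combined hearts 4 rose (Ccl8, Ccl9, Cxcl12 and Cxcl16), where 43.8% of all genes were called and 22.0% of all genes were called higher. In PKCε knockout hearts Cxcl12 fell and none rose (28.9% of all genes called, and 14.3% of all genes called lower). In PKCδ-ablated hearts Cxcl16 rose (26.9% of all genes called, and 12.9% of all genes called higher). In wild-type hearts Cx3cl1 and Cxcl16 rose (35.7% of all genes called, and 17.8% of all genes called higher). Counting both directions, each share of ligands called was below that of all genes. TAC and unstressed libraries did not overlap for 2 ligands in combined hearts (33.0% of all genes), 1 in PKCε knockout hearts (35.4%), 4 in PKCδ-ablated hearts (48.0%) and 1 in wild-type hearts (35.2%).

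**Figure D2:**
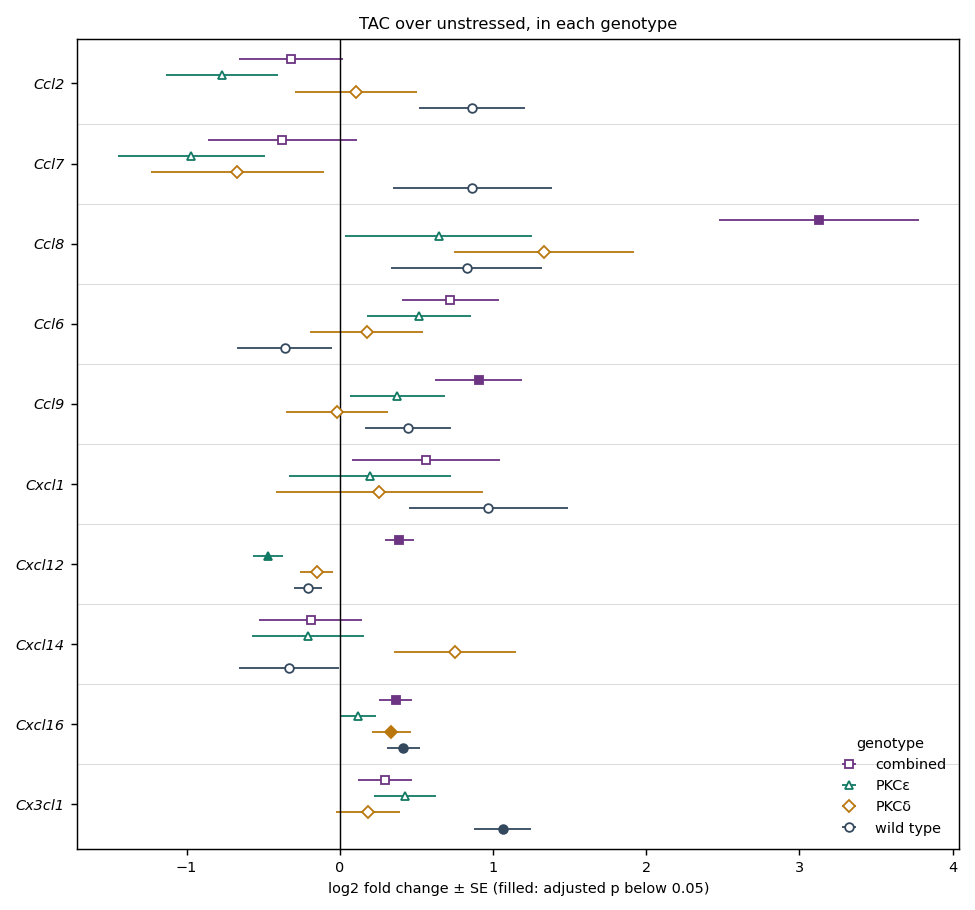
Log2 fold change of each ligand, TAC over unstressed, in each genotype, with bars of 1 SE and filled points where the adjusted p is below 0.05. Ccl8 in combined hearts stands highest at 3.13, and Cxcl12 lies above 0 in combined hearts and below 0 in PKCε knockout hearts.

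Cxcl12, the stromal ligand of Cxcr4, moved in opposite directions with TAC in combined and in PKCε knockout hearts. In combined hearts it had 248.5, 319, 274 and 251 CPM after TAC, against 224, 209, 200.4 and 201 CPM in unstressed hearts. In PKCε knockout hearts it had 302, 322, 267 and 257 CPM after TAC, against 403, 401 and 389 CPM in unstressed hearts. Every combined TAC library was above every combined unstressed library, and every PKCε knockout TAC library was below every unstressed library of that genotype. The log2 fold change was 0.39 ± 0.09 in combined hearts (adjusted p = 0.0012, 1.31-fold) and -0.47 ± 0.10 in PKCε knockout hearts (adjusted p = 0.000742, 0.722-fold). Without the 2 doubted libraries the value in combined hearts was 0.31 ± 0.09 (adjusted p = 0.00715). In PKCδ-ablated hearts Cxcl12 had 289, 286 and 319 CPM after TAC, against 337, 329 and 327 CPM in unstressed hearts. In wild-type hearts it had 295, 257, 300.0 and 310.4 CPM after TAC, against 315, 422.5, 287 and 317 CPM in unstressed hearts. The PKCδ-ablated groups did not overlap, with a log2 fold change of -0.15 ± 0.11 that did not pass the test (adjusted p = 0.317), and the wild-type groups overlapped (-0.21 ± 0.09, adjusted p = 0.0808).

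The spread of Cxcl12 among groups lay mainly in unstressed hearts. It averaged 209 ± 10.97 CPM (SD, n = 4) in combined unstressed hearts and 336 ± 59.5 CPM (n = 4) in wild-type unstressed hearts, and every combined library was below every wild-type library. This was a fall to 0.622-fold, with a log2 fold change of -0.69 ± 0.09 (adjusted p = 4.76e-06). The single ablations did not pass the test: Cxcl12 averaged 398 ± 7.79 CPM (n = 3) in PKCε knockout unstressed hearts, with a log2 fold change over wild type of 0.24 ± 0.10 (adjusted p = 0.207). It averaged 331 ± 5.49 CPM (n = 3) in PKCδ-ablated unstressed hearts. After TAC the 4 means lay close together, at 273 ± 32.8 CPM in combined, 287 ± 30.3 CPM in PKCε knockout, 298 ± 18.1 CPM in PKCδ-ablated and 291 ± 23.2 CPM in wild-type hearts. The TAC effect in combined hearts exceeded that in wild type by 0.60 ± 0.13 on the log2 scale (interaction, adjusted p = 0.00159), and by 0.45 ± 0.13 without the 2 doubted libraries (adjusted p = 0.0141). For this interaction 25.1% of all genes were called, and 2 of the 10 ligands, Cxcl12 and Cx3cl1. DESeq2 called 4 ligands, with Ccl6 and Ccl8 besides, and 5 had an unadjusted p below 0.05. In the order of the 8 group means, PKCδ-ablated unstressed over PKCδ-ablated TAC and combined TAC over combined unstressed were the only neighbours whose Cxcl12 values did not overlap.

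In RNA from tissue pieces, fewer cells of a type and less RNA per cell cannot be told apart. Beside the Cxcl12 values, 8 of 12 endothelial markers tested were lower and none higher in combined unstressed than in wild-type unstressed hearts, where 29.2% of all genes were called. Their summed level ran from 1675 to 1855 CPM in combined and from 2139 to 2237 CPM in wild-type unstressed hearts. Of 14 fibroblast markers, 5 were lower and none higher in that comparison, at 2146 to 2606 CPM in combined and 2643 to 2810 CPM in wild-type unstressed hearts. With TAC in combined hearts, 7 endothelial markers rose and none fell (2010 to 2218 CPM after TAC), and 12 fibroblast markers rose and none fell (3864 to 5544 CPM after TAC), 10 of them without the 2 doubted libraries. In that comparison 43.8% of all genes were called. The highest mean of Cxcl12 was in PKCε knockout unstressed hearts. There 2 endothelial markers were lower than in wild type and none higher (3.0% of all genes called), and no fibroblast marker was called. With TAC in that genotype Cxcl12 fell, 1 endothelial marker rose and 1 fell, and 6 fibroblast markers rose and 1 fell (28.9% of all genes called). The fibroblast markers summed to 3310 to 4978 CPM after TAC and 2578 to 2846 CPM without stress. Of 10 pericyte and smooth muscle markers, 5 were lower in combined than in wild-type unstressed hearts, and 6 rose and 2 fell with TAC in combined hearts. Their summed level ran from 1141 to 1439 CPM in combined TAC (median 1160 CPM) and from 1389 to 1626 CPM in combined unstressed hearts (median 1417 CPM). These ranges overlapped. No marker of these 3 lists was at 0 in every library, and their part in the Cxcl12 values was not tested.

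Cxcl14, a ligand of tissue stroma and epithelium with no settled receptor, had no call in the edgeR model of all 8 groups. In unstressed hearts it stood at 25.4, 16.9, 26.5 and 18.4 CPM with combined ablation, 23.9, 29.6 and 17.9 CPM with PKCε knockout and 15.1, 15.3 and 15.8 CPM with PKCδ ablation, against 38.4, 32.5, 34.0 and 38.0 CPM in wild type. All 10 ablated libraries were below all 4 wild-type libraries. The log2 fold changes over wild type were -0.72 ± 0.33 in combined (adjusted p = 0.108), -0.59 ± 0.36 in PKCε knockout (adjusted p = 0.452) and -1.22 ± 0.38 in PKCδ-ablated hearts (adjusted p = 0.0618), and the 3 comparisons share the wild-type libraries. DESeq2 called the PKCδ difference (adjusted p = 0.018). With edgeR's model of only the groups compared, which uses their own spread, all 3 differences passed, at adjusted p = 0.00257 for combined ablation, 0.0497 for PKCε knockout and 8.44e-07 for PKCδ ablation. Lower without overlap were 2 ligands in combined (13.8% of all genes), 1 in PKCε knockout (7.72%) and 1 in PKCδ-ablated hearts (9.55%). After TAC the genotypes overlapped, from 10.1 CPM in a PKCε knockout to 42.6 CPM in another, and from 19.8 to 34.8 CPM in wild type. Among combined TAC libraries, replicate 1 had 31.9 CPM and the others 13.8 to 16.2 CPM. PKCδ-ablated hearts had 21.7, 23.9 and 32.3 CPM after TAC, all above their unstressed libraries, with a log2 fold change of 0.75 ± 0.40 that did not pass the test (adjusted p = 0.17). It passed in 1 of 15 alternatives, with only the groups compared (adjusted p = 0.000403), as did the interaction with PKCδ ablation in 1 of 23 (0.0219). Over the alternatives the log2 fold change ran from 0.075 to 0.87, with adjusted p-values up to 0.882. Summed Y-linked transcripts were under 1 CPM in all 3 unstressed libraries of this genotype and in 0 of its TAC libraries. Here TAC therefore cannot be told apart from sex as read from these transcripts.

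Cx3cl1, the membrane-bound ligand of the macrophage receptor Cx3cr1, rose with TAC in wild-type hearts. It had 25.9, 25.9, 19.0 and 21.8 CPM after TAC, against 9.88, 15.9, 10.2 and 8.43 CPM in unstressed wild-type hearts. All 4 TAC libraries were above all 4 unstressed ones, and the log2 fold change was 1.06 ± 0.19 (adjusted p = 9.48e-05, 2.09-fold). Without the 2 doubted libraries it was 1.02 ± 0.20 (adjusted p = 0.000389). In the other genotypes the change with TAC did not pass the test. Combined hearts had 26.7, 19.3, 26.0 and 24.7 CPM after TAC, against 20.1, 22.1, 17.3 and 19.4 CPM without stress (0.30 ± 0.18, adjusted p = 0.182). PKCε knockout hearts had 25.8, 17.5, 19.8 and 18.3 CPM after TAC, against 16.8, 19.5 and 9.41 CPM without stress (0.43 ± 0.20, adjusted p = 0.115). PKCδ-ablated hearts had 18.4, 23.3 and 21.0 CPM after TAC, against 18.0, 20.1 and 17.0 CPM without stress (0.19 ± 0.21, adjusted p = 0.548). These 3 genotypes were close to wild-type TAC hearts after TAC and mostly above wild type without stress.

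Without stress, Cx3cl1 was higher than in wild type with combined ablation (0.83 ± 0.19, adjusted p = 0.00176, 1.78-fold) and with PKCδ ablation (0.73 ± 0.20, adjusted p = 0.035, 1.66-fold). Every library of both groups was above every wild-type library. With PKCε knockout the difference was 0.45 ± 0.21 (adjusted p = 0.275), and its libraries overlapped those of wild type. The PKCδ call is thin: it was lost in 8 of 16 alternatives, with adjusted p-values from 0.00439 to 0.108. Summed Y-linked transcripts were under 1 CPM in all 3 of its ablated libraries and in 2 of the 4 wild-type ones, though all were labelled male. With the Y-linked score as a term the value was 0.74 ± 0.22 (adjusted p = 0.0462). The TAC effect in combined hearts was smaller than that in wild type by 0.77 on the log2 scale (-0.77 ± 0.26, adjusted p = 0.0302), but -0.63 ± 0.27 without the 2 doubted libraries (adjusted p = 0.111). For PKCδ the same difference was -0.88 ± 0.28 and did not pass the test (adjusted p = 0.132).

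The receptor Cx3cr1, a marker of resident macrophages, was, like its ligand, lowest in wild-type unstressed hearts. It had 7.997, 13.8, 12.7 and 10.97 CPM in combined TAC hearts, against 16.4, 19.4, 12.9 and 21.6 CPM in combined unstressed hearts (-0.64 ± 0.19, adjusted p = 0.00823). In wild-type hearts it had 16.1, 18.1, 13.7 and 12.7 CPM after TAC, against 6.71, 8.57, 3.72 and 7.49 CPM without stress (1.17 ± 0.20, adjusted p = 7.17e-05). In combined hearts it fell and in wild-type hearts it rose, and the difference between these TAC effects was -1.81 ± 0.28 (adjusted p = 7.13e-05), and -1.82 ± 0.29 without the 2 doubted libraries (adjusted p = 0.000225). Against wild type, the receptor was higher in unstressed hearts with combined ablation (1.39 ± 0.20, adjusted p = 1.51e-05) and with PKCδ ablation (0.97 ± 0.22, adjusted p = 0.011). Beside this, 14 of 21 macrophage and monocyte markers rose and 2 fell with TAC in wild type, where 35.7% of all genes were called. Their summed level ran from 546 to 793 CPM in wild-type TAC (median 569 CPM) and from 443 to 507 CPM in wild-type unstressed hearts (median 478 CPM). In combined unstressed hearts 5 were higher than in wild type and none lower (536 to 554 CPM in combined), where 29.2% of all genes were called. With TAC in combined hearts 3 rose and 5 fell (43.8% of all genes called), and 8 had a lower and none a higher TAC effect than in wild type (25.1%). With PKCδ ablation in unstressed hearts, where Cx3cl1 and Cx3cr1 were higher, 0 of the 21 markers were called (5.37%). None of these markers was at 0 in every library, and their part in the Cx3cl1 values was not tested.

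**Figure D3:**
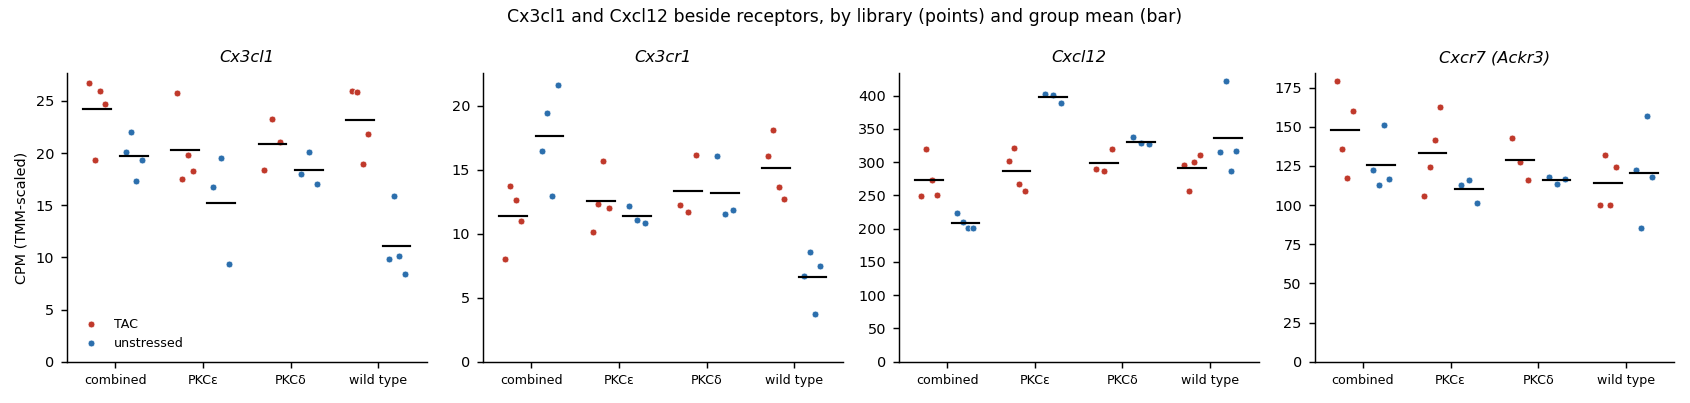
CPM of Cx3cl1 and its receptor Cx3cr1, and of Cxcl12 and its scavenger Cxcr7 (Ackr3), in every library of the 8 groups, with group means. Wild-type unstressed hearts have the lowest means for both Cx3cl1 (8.43 to 15.9 CPM) and Cx3cr1 (3.72 to 8.57 CPM), and combined unstressed hearts are lowest for Cxcl12.

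Cxcl16, the transmembrane ligand of Cxcr6 and a scavenger of oxidised lipoprotein, rose with TAC in 3 of 4 genotypes. Combined hearts had 9.98, 12.2, 12.3 and 10.3 CPM after TAC, against 8.52, 8.72, 7.43 and 10.1 CPM without stress (0.36 ± 0.11, adjusted p = 0.00758). PKCδ-ablated hearts had 11.8, 11.3 and 11.6 CPM after TAC, against 9.10, 9.12 and 9.31 CPM without stress (0.34 ± 0.13, adjusted p = 0.0472). Wild-type hearts had 10.7, 13.3, 13.2 and 11.6 CPM after TAC, against 8.94, 10.9, 7.94 and 8.76 CPM without stress (0.42 ± 0.11, adjusted p = 0.00364, 1.33-fold). Without the 2 doubted libraries the value was 0.32 ± 0.12 in combined (adjusted p = 0.0264) and 0.38 ± 0.12 in wild-type hearts (adjusted p = 0.013). Only the PKCδ-ablated groups did not overlap, and that call was lost in 8 of 15 alternatives, where the smallest adjusted p of all 15 was 0.0163. Among the 8 was each run without 1 library of these groups (adjusted p = 0.0794 to 0.109). In PKCδ-ablated hearts TAC also cannot be told apart from sex as read from Y-linked transcripts. PKCε knockout hearts had 9.08, 10.5, 10.4 and 9.48 CPM after TAC, against 8.13, 9.88 and 9.26 CPM without stress (0.12 ± 0.12, adjusted p = 0.498). All 4 PKCε knockout TAC libraries were below all 4 wild-type TAC libraries, a difference of -0.31 ± 0.11 that did not pass the test (adjusted p = 0.264). This was 1 ligand without overlap between those groups, where 6.8% of all genes did not overlap.

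Ccl8, a CC ligand, showed the largest fold change with TAC of the 10 ligands, at low counts. In combined hearts it had 9, 24, 17 and 12 reads after TAC (0.615 to 1.82 CPM), against 1, 2, 1 and 2 reads without stress (0.0693 to 0.147 CPM). The groups did not overlap, and the log2 fold change was 3.13 ± 0.66 (adjusted p = 0.000296). From the summed reads, 62 after TAC and 6 without stress, the ratio of CPM was 9.26, with an exact 95% interval of 4.02 to 26.2 that covers counting error only. Without the 2 doubted libraries the log2 fold change was 2.75 ± 0.68 (adjusted p = 0.00179). With only the groups compared, Ccl8 did not pass the low-count filter, so that model gave no value.

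The unstressed level behind that ratio was low in combined hearts: Ccl8 was below wild type by a log2 fold change of -2.18 ± 0.75 (adjusted p = 0.0281). Wild-type unstressed hearts ranged widely, with 3, 9, 0 and 16 reads, and overlapped the combined ones. Without wild-type unstressed replicate 4 the difference was -1.48 with an adjusted p of 0.207, and without replicate 2 the adjusted p was 0.0611. It was 0.0785 without combined unstressed replicate 1 and 0.0576 without replicate 3. After TAC all genotypes lay in a like range, at 0.615 to 1.82 CPM in combined, 0.443 to 0.897 CPM in PKCε knockout, 0.743 to 1.62 CPM in PKCδ-ablated and 0.537 to 1.62 CPM in wild-type hearts. PKCδ-ablated TAC libraries were all above unstressed ones of that genotype, but the log2 fold change of 1.33 ± 0.59 did not pass the test (adjusted p = 0.0919), and neither did that of 0.83 ± 0.49 in wild type (adjusted p = 0.195). Without wild-type unstressed replicate 4 the wild-type value was 1.54 ± 0.57 (adjusted p = 0.0414). The TAC effect in combined hearts differed from that in wild type by 2.30 ± 0.87 (adjusted p = 0.0513), and by 1.76 ± 0.88 without the 2 doubted libraries (adjusted p = 0.159). It passed in 6 of 25 alternatives.

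Ccl2 and Ccl7, which lie on the same strand of chromosome 11 as Ccl8, had no call in the edgeR model of all 8 groups. Ccl2 had 1.88, 4.40, 2.59 and 1.81 CPM in wild-type TAC hearts, against 0.865, 2.63, 1.005 and 1.34 CPM in wild-type unstressed hearts. The groups overlapped, and the log2 fold change was 0.86 ± 0.35 (adjusted p = 0.0532). The call depended on the processing, since 7 of 17 alternatives passed the threshold adjusted p-values ran from 0.00699 to 0.287, and log2 fold changes from 0.51 to 1.31. The highest TAC level is that of replicate 2, and without both doubted libraries the value was 0.52 ± 0.36 (adjusted p = 0.278). In PKCε knockout hearts Ccl2 had 1.08, 1.44, 2.62 and 1.67 CPM after TAC, against 2.39, 4.77 and 1.56 CPM without stress (-0.77 ± 0.37, adjusted p = 0.115). Ccl7 had 1.01, 1.15, 1.75 and 0.557 CPM in wild-type TAC hearts, against 0.433, 1.35, 0.201 and 0.401 CPM in wild-type unstressed hearts (0.87 ± 0.52, adjusted p = 0.202). Without wild-type unstressed replicate 2 it was 1.62 ± 0.59 (adjusted p = 0.0327). Its highest levels were in PKCε knockout unstressed hearts, with 2.01, 3.03 and 1.09 CPM, a log2 fold change over wild type of 1.72 ± 0.53 that did not pass the test (adjusted p = 0.0734). It passed without wild-type unstressed replicate 2 (2.47 ± 0.58, adjusted p = 0.0155) and without PKCε knockout unstressed replicate 3 (2.03 ± 0.55, adjusted p = 0.0379). Of those 3 libraries, 1 lay within the wild-type range.

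Ccl9 and Ccl6, rodent CC ligands of Ccr1, stood at 1.80 to 7.06 CPM and 2.42 to 9.56 CPM over all libraries. Ccl9 rose with TAC in combined hearts, with 5.06, 5.399, 3.34 and 4.77 CPM after TAC, against 1.80, 3.37, 2.59 and 2.13 CPM without stress (0.91 ± 0.28, adjusted p = 0.0109). The overlap was small, between 3.34 CPM after TAC and 3.37 CPM without stress. With only the libraries labelled male, which leaves combined TAC replicate 3 alone in its group, the value was 0.44. Without the 2 doubted libraries it was 0.83 ± 0.30 (adjusted p = 0.0273). In wild-type hearts Ccl9 had 3.02, 2.87, 7.06 and 2.99 CPM after TAC, against 3.101, 3.31, 2.11 and 3.08 CPM without stress (0.45 ± 0.28, adjusted p = 0.226), so that only replicate 3 stood apart. Ccl6 had 7.86, 5.78, 2.93 and 6.07 CPM in combined TAC hearts, against 2.42, 2.78, 3.92 and 4.53 CPM in combined unstressed hearts (0.72 ± 0.31, adjusted p = 0.0656, and 0.045 by DESeq2). With only the libraries labelled male, where combined TAC replicate 3 again stands alone in its group, the value was -0.22. Without that same library it was 0.95 ± 0.30 (adjusted p = 0.013), so both values turn on combined TAC replicate 3. In wild type it had 3.89, 3.00, 6.61 and 2.92 CPM after TAC, against 5.48, 3.46, 6.53 and 5.75 CPM without stress (-0.36 ± 0.31, adjusted p = 0.393). The difference between these TAC effects of Ccl6 was 1.08 ± 0.44 and did not pass the test (adjusted p = 0.0743). DESeq2 called it, and it passed without wild-type unstressed replicate 2 (adjusted p = 0.0408), wild-type TAC replicate 3 (0.0188) or combined TAC replicate 3 (0.0202).

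Cxcl1, the neutrophil ligand of Cxcr2, had no call and the lowest level per kilobase. It had 0.335, 2.10, 0.972 and 0.487 CPM in wild-type TAC hearts, against 0.649, 0.376, 0.502 and 0.468 CPM in wild-type unstressed hearts (0.97 ± 0.52, adjusted p = 0.147). The highest of these came from replicate 2, which is 1 of the 2 doubted libraries, and without both the value was 0.28 ± 0.54 (adjusted p = 0.733).

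**Figure D4:**
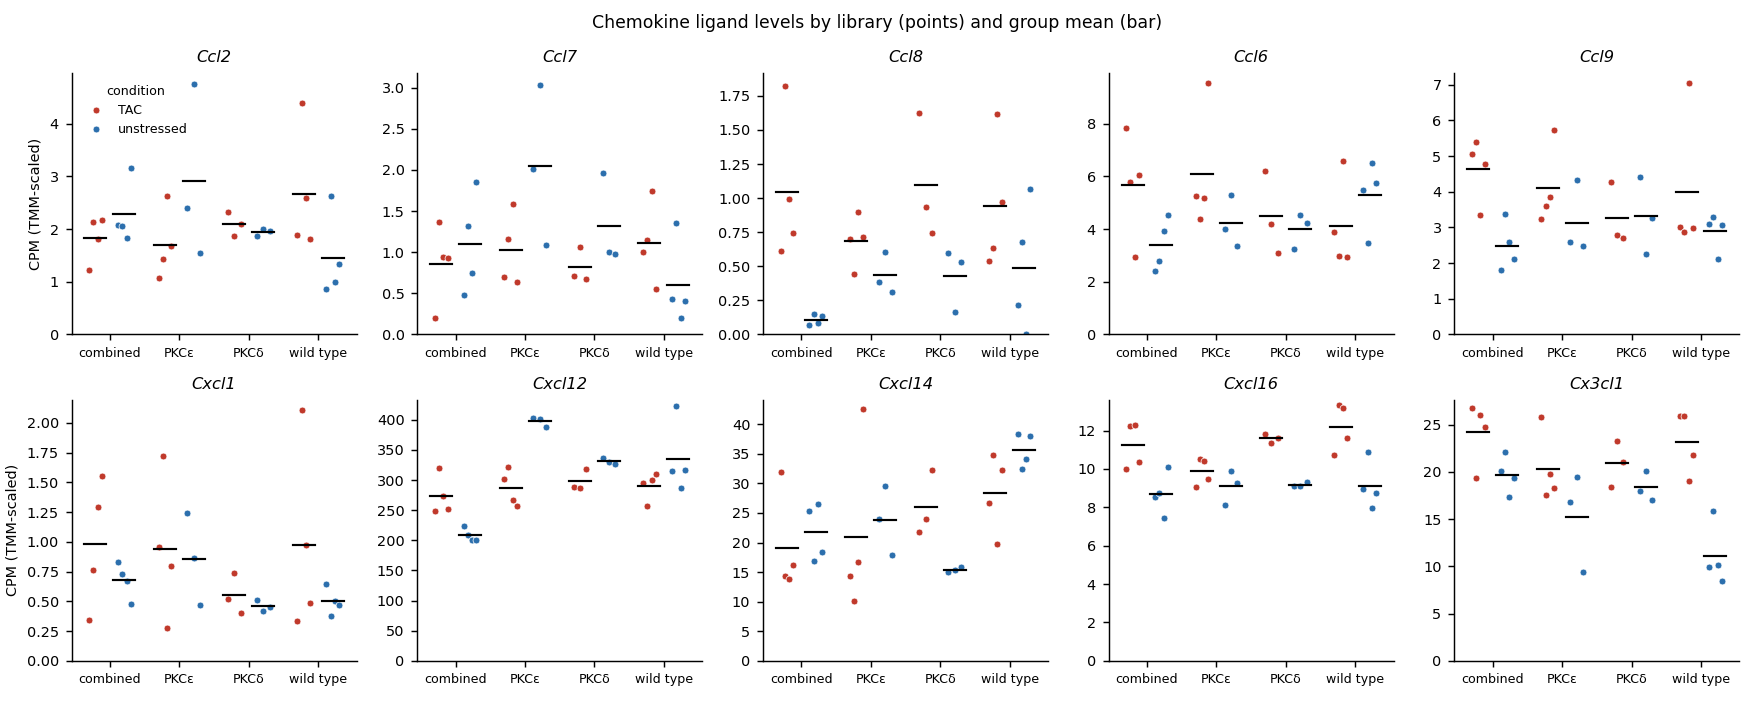
CPM of each of the 10 ligands in every library, by genotype and condition, with group means. Cxcl12 in combined unstressed hearts (200.4 to 224 CPM) lies below every other group, and Cx3cl1 in wild-type unstressed hearts (8.43 to 15.9 CPM) has the lowest mean.

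Between genotypes, calls among the ligands came from unstressed hearts. Against wild type, combined ablation had 1 higher (Cx3cl1) and 2 lower (Cxcl12 and Ccl8), where 29.2% of all genes were called. PKCδ ablation had 1 higher (Cx3cl1), where 5.37% were called. PKCε knockout had 0 of 10, where 3.0% of all genes were called by edgeR's test. After TAC none of the 10 ligands was called in any ablation against wild type. There 6.76% of all genes were called for combined ablation, 0.0436% (6 genes) for PKCε knockout and 0.0% for PKCδ ablation, with smallest ligand adjusted p-values of 0.302, 0.264 and 0.895. For PKCδ ablation after TAC, 789 genes had an unadjusted p below 0.05 and DESeq2 called 1 gene. In these 3 comparisons after TAC, 1 ligand had an unadjusted p below 0.05, Cxcl16 with PKCε knockout, and DESeq2 called 0 ligands. For PKCε knockout in unstressed hearts, 4 ligands had an unadjusted p below 0.05 and DESeq2 called 1, Ccl7 (adjusted p = 0.040). The interactions of TAC with PKCδ ablation and with PKCε knockout called none of the 10 ligands either, at 1.27% and 0.0363% of all genes, with 2 and 3 ligands at an unadjusted p below 0.05 and 0 called by DESeq2. Calls in 1 condition and not in the other do not show a difference, which only the interactions test.

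**Figure D5:**
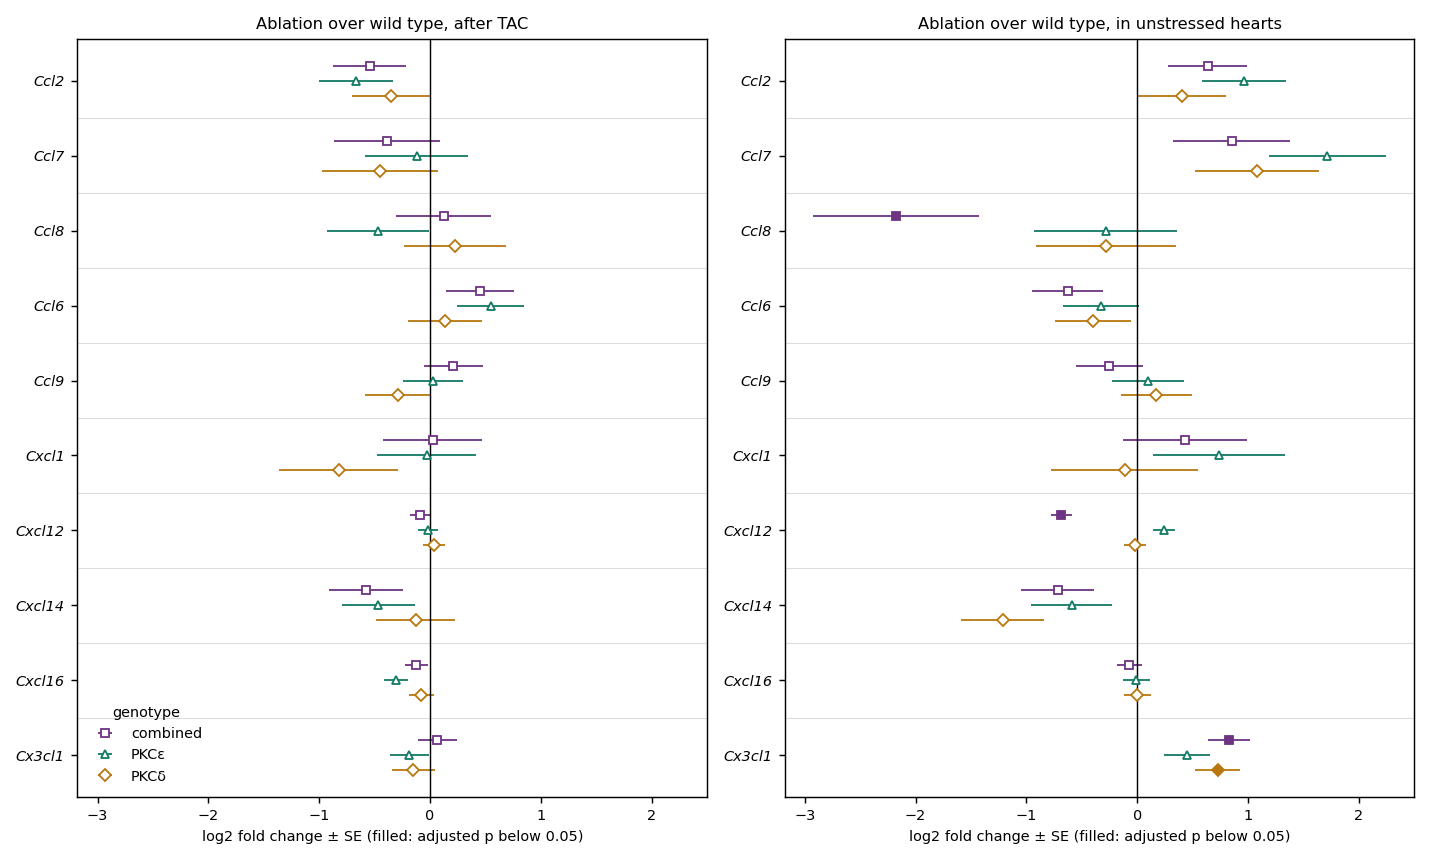
Log2 fold change of each ligand, ablated over wild type, in unstressed and in TAC hearts, with bars of 1 SE and filled points where the adjusted p is below 0.05. The filled points are Cxcl12, Cx3cl1 and Ccl8 with combined ablation and Cx3cl1 with PKCδ ablation, all in unstressed hearts.

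The 250 bases before the annotated start are printed for the ligands that rose on average and have an entry in the RefSeq promoter table (GRCm38.p6), and for Cxcl12, which moved both ways. Entries were matched for 7 of the 10 ligands, and none for Ccl2, Ccl7 and Cxcl16. Capitals mark matches on either strand to the 4 motifs searched. The TATA box was searched as the letters TATAAA. The site of AP-1 transcription factors was searched as the letters TGANTCA. The GC box bound by Sp1 was searched as the letters GGGCGG. The kappaB motif of NF-kB was searched by its consensus.
Ccl8, chr11:82114935-82115184, plus strand: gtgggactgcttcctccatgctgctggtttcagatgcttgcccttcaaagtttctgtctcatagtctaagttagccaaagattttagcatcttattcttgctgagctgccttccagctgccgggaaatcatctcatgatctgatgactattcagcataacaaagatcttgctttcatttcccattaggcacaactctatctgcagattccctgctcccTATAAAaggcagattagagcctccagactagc
Ccl9, chr11:83578637-83578886, minus strand: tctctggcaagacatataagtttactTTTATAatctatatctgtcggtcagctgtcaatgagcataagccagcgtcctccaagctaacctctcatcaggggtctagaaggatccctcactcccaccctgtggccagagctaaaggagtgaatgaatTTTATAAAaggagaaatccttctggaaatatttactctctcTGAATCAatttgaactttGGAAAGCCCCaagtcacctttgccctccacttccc
Cx3cl1, chr8:94771930-94772179, plus strand: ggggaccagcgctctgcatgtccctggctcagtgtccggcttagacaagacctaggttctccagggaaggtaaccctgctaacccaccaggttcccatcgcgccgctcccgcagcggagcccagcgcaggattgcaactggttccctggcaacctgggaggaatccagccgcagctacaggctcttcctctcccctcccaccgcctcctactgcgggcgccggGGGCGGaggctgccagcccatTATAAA
Cxcl12, chr6:117168285-117168534, plus strand: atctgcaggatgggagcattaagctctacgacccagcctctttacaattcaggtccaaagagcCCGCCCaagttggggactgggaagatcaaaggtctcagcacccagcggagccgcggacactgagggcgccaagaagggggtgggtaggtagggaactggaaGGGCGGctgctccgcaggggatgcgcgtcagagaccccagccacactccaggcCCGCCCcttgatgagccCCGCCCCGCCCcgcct

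Of 32851 such promoters, 12.4% held a TATA box match, 6.75% an AP-1 match, 32.7% a GC box match and 7.25% a kappaB match. Ccl8 held a TATA box 32 to 27 bases before its start and none of the other motifs. Ccl9 held a kappaB match 35 to 26 bases before its start, an AP-1 match 53 to 47 bases before it, and 3 TATA box matches, of which the ones at 94 to 89 and 92 to 87 overlap on opposite strands. Cx3cl1 held a GC box 27 to 22 bases before its RefSeq start and TATAAA just before it. The GENCODE annotation starts this gene earlier, at 94772009, so by that annotation both matches lie inside the gene. The Cxcl12 window held 5 GC boxes and no TATA box, with the 2 nearest its start overlapping by a base. In the windows not printed, that of Cxcl1 held a pair of overlapping kappaB matches between 71 and 61 bases before its start, and those of Ccl6 and Cxcl14 held none of the 4 motifs. These matches describe the letters of the window only.

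Of 20 chemokine receptors listed, 15 passed the filter. On average over genotypes 5 rose with TAC and 1 fell, a share below the 56.9% of all genes called. Ccr2, the monocyte receptor of Ccl2 and Ccl7, had a log2 fold change of 0.86 ± 0.22 (adjusted p = 0.00117), although its level was 0.129 CPM per kilobase. The scavenger Ccrl1 (Ackr4) rose by 0.87 ± 0.16 (adjusted p = 5.23e-05) and the Cxcl12 receptor Cxcr4 by 0.37 ± 0.12 (adjusted p = 0.00993), while Ccrl2 (-0.65 ± 0.09, adjusted p = 1.36e-06) fell. The other 2 that rose were Cxcr5 (0.68 ± 0.26, adjusted p = 0.0256, and 0.0522 without the 2 doubted libraries) and the scavenger Ccbp2 (Ackr2, 0.36 ± 0.13, adjusted p = 0.0238). Without the 2 doubted libraries Ccrl1 changed by 2.08 ± 0.28 in combined (adjusted p = 2.69e-06) and 0.365 ± 0.297 in wild-type hearts (adjusted p = 0.371). The difference between these TAC effects was 1.72 ± 0.41 (adjusted p = 0.00562). For Cxcr4 the values were 0.75 ± 0.24 and -0.055 ± 0.246, and their difference did not pass the test (adjusted p = 0.104). In combined hearts 4 rose and 3 fell (43.8% of all genes called), among them Cxcr6, the receptor of Cxcl16 (2.06 ± 0.58, adjusted p = 0.00485), and Cxcr4 (0.68 ± 0.22, adjusted p = 0.0146). Cxcr7, at 37.4 CPM per kilobase the most abundant receptor, was called in none of the TAC comparisons (average 0.15 ± 0.08, adjusted p = 0.134). Wild-type hearts had 2 receptors higher and 1 lower, PKCε knockout hearts 1 higher and 1 lower, and PKCδ-ablated hearts none called, with a smallest adjusted p of 0.179 for Ccrl2.

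Of 10 genes tested that cleave, shed or hold chemokines, 5 rose and 2 fell with TAC on average, where 56.9% of all genes were called. Mmp2 and Mmp14, matrix proteases that can trim Cxcl12 and Ccl7, rose by 0.75 ± 0.07 (adjusted p = 3.11e-09) and 0.92 ± 0.10 (adjusted p = 1.09e-08). The peptidase Dpp4, which inactivates Cxcl12, fell (-0.65 ± 0.12, adjusted p = 1.97e-05). Of 17 inflammatory cytokine and NF-kB feedback genes tested, 10 rose and 2 fell on average (28.1% of all genes called higher). In wild-type hearts 9 rose and 1 fell (35.7% of all genes called), and 6 rose and 1 fell without the 2 doubted libraries. Those that rose in wild type included Nfkbiz (0.97 ± 0.16) and Relb (0.73 ± 0.12). Of 4 neutrophil markers tested, 3 were called with TAC in combined hearts (43.8% of all genes), 0 in PKCε knockout (28.9%), 1 in PKCδ-ablated (26.9%) and 2 in wild-type hearts (35.7%), all higher.

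By the root mean square difference of their 8 group means on the log2 scale, each centred on its own mean, the genes most like Cx3cl1 among 12572 were AF251705 (0.0698) and Pak1 (0.12). For Cxcl12 they were Gorab (0.0642) and 2410127L17Rik (0.0742), for Cxcl16 Habp4 (0.0456) and Arf6 (0.0517), and for Ccl9 Fbln5 (0.0468) and Gpm6b (0.0504). Those nearest Ccl8 (Rpl39, 0.165) and Ccl7 (Hcn4, 0.194) were farther off, as were those nearest Cxcl14 (Rtn4rl2, 0.167). The distances are not scaled to the range of a ligand's own means. That range was 2.25 for Ccl8, 1.68 for Ccl7 and 1.2 for Cxcl14, against 0.486 (Cxcl16) to 1.15 (Cx3cl1) for the ligands named before. These distances rest on 8 means that share their libraries, and they are a description.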

How the data were processed

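Polyadenylated RNA of 29 mouse heart libraries was sequenced single-end and without strand, per the labels' protocols. The authors deposited raw counts per gene. The submitters' processing notes name mm10, Bowtie2, TopHat2 2.0.10, HTSeq, DESeq and edgeR, and the annotation used for counting is not given in the sources used here. Ambiguous reads were 0.776% to 0.942% of a library, and reads without a unique place 8.01% to 14.2%. These and the other totals outside genes (5 in all) were left out.

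Genes were tested with the quasi-likelihood test of edgeR 4.0.16 (limma 3.58.1, R 4.3.3), with TMM scaling, a filter on low counts by group, 8 group means and 21 residual degrees of freedom. Benjamini-Hochberg adjustment ran over 13765 genes in each of 14 comparisons at 0.05. No sex term was used, since the design text names no covariate and Y-linked transcripts went against many sex labels. CPM is per 1000000 TMM-scaled counts. The script was tested on simulated data with 200 changed genes. The 10 ligands, the lists, the naming rule and the tests were chosen with earlier results of these data known. Named were all 10 ligands, any receptor tested, up to 4 members of another list with the smallest adjusted p in the wild-type or average TAC effect, and the 2 genes most like a ligand. Settings varied were RLE scaling, the low-count filter (none), a sex term (label or Y-linked score), male-labelled libraries alone, a block for the replicate number, a model of the compared groups alone, DESeq2 1.42.0, and leaving out each library or both doubted ones. Same-numbered libraries were not paired. Closest within a group were combined unstressed replicates 2 and 4 (chi-square per degree of freedom 1.58), above sampling noise, and each library counted as 1 sample. Next came wild-type unstressed replicates 1 and 4 (2.29), PKCδ-ablated TAC replicates 1 and 2 (2.55) and PKCε knockout unstressed replicates 1 and 2 (2.63). The remaining pairs ran from 5.21 to 38.8. What makes these pairs close was not tested, and no setting merged them. If the libraries of a pair are not independent, p-values that use their groups are too small. Sequences came from GENCODE vM21 and RefSeq. Plots were made with matplotlib 3.10.9 under Python 3.11.15.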

Additional observations from a re-analysis of the deposited data

Results flagged for a closer look

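The TAC effect on Cxcl12 in combined hearts exceeded that in wild type by 0.60 on the log2 scale in the test of the interaction. By position of the libraries, every combined TAC library lay above the unstressed ones (log2 fold change 0.39), every PKCε knockout and PKCδ-ablated TAC library lay below the unstressed ones of its genotype, and these differences between genotypes were not tested. The PKCδ-ablated change itself was -0.15 ± 0.11 and did not pass the test (adjusted p = 0.317). For Cx3cl1 the interaction of combined ablation with TAC was -0.77, with an adjusted p that passed the threshold only narrowly.

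Within groups of 4 libraries, 2 of 50 sets of ligand values held a library far from its group, where chance gives about 1 in 20. Ccl9 stood at 7.06 CPM in wild-type TAC replicate 3, and Cxcl14 at 31.9 CPM in combined TAC replicate 1.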

How the results depend on the processing

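Of 2719 alternative values of the 140 ligand results, 32 lost a call, 55 gained one and 0 changed sign past the threshold. The calls kept under every alternative run were Cx3cl1 and Cxcl16 in wild-type TAC, Cxcl12 in its 4 called comparisons, Ccl8 and Cxcl16 in combined TAC, Cx3cl1 in combined unstressed hearts, and the average TAC effects of Ccl8, Cx3cl1 and Cxcl16. For Ccl8 in combined TAC these do not include the model of only the groups compared, where it did not pass the low-count filter. The Cx3cl1 interaction with combined ablation was lost in 10 of 25 alternatives, among them the sex label as a term (adjusted p = 0.0558). Another was only libraries labelled male (-0.7). In that setting combined TAC replicate 3 and PKCδ-ablated TAC replicate 1 stand alone in their groups. The average Ccl9 effect was lost in that setting too, at 0.44. Of 40 pairs of ligand and genotype, 8 did not overlap between TAC and unstressed libraries, and 10 on unscaled totals.

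Counts over all genes moved most after TAC. Combined against wild type called 930 genes, but 122 with the sex label, 1675 with the Y-linked score and 2 with only the groups compared. PKCε knockout against wild type called 6, but 14 with the Y-linked score, 46 with male-labelled libraries, 2 with only the groups compared, 60 with DESeq2 and 24 without both doubted libraries. PKCδ ablation against wild type called 0, and 1 with DESeq2. The PKCε interaction called 5, but 15 with the Y-linked score, 52 with DESeq2 and 8 without both doubted libraries. The PKCδ interaction called 175, but 85 with male-labelled libraries, 515 with only the groups compared and 303 with DESeq2. Male-labelled libraries alone gave 2840 calls in combined TAC (6027 with all), 1600 in PKCδ TAC (3696 with all) and 910 in the combined interaction (3461 with all). The causes were not tested.

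Leaving out 1 library gave 2461 to 3312 calls for PKCδ TAC, 210 to 779 for PKCδ and 112 to 506 for PKCε unstressed, 56 to 256 and 3 to 26 for the PKCδ and PKCε interactions, 2 to 12 for PKCε after TAC and 140 to 1407 for combined after TAC. Other counts stayed within 1.5 times. Same-numbered libraries did not deviate together (r from -0.234 to 0.181 over 94 pairs), and the replicate block changed the PKCε interaction count to 10 and added calls of Ccl2 in wild-type TAC and in the combined interaction.

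Depth limits Ccl8, Cxcl1 and Ccl7 most, and the confounding of sex label and TAC limits what is said of every ligand.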

Other observations

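Of 27 further chemokine ligands listed, 11 passed the filter, and on average over genotypes 3 rose and 2 fell with TAC, where 56.9% of all genes were called (28.1% higher and 28.9% lower). Ccl11 (eotaxin, an eosinophil attractant) fell (-2.10 ± 0.29, adjusted p = 1.33e-06). In combined hearts it had 0.205, 0.3802, 0.410 and 0.0620 CPM after TAC, against 3.12, 1.17, 1.84 and 1.10 CPM without stress. In wild-type hearts it had 0.537, 1.08, 0.712 and 0.835 CPM after TAC, against 7.93, 1.503, 1.21 and 7.56 CPM without stress. All TAC libraries lay lower in both genotypes, and the wild-type unstressed libraries fell into a high and a low pair, replicates 1 and 4 against 2 and 3. Replicates 1 and 4 are also among the close pairs named above (chi-square per degree of freedom 2.29). Ccl24, another eosinophil attractant, fell too (-0.83 ± 0.17, adjusted p = 0.000121), and Ccl5, a T cell attractant, rose (1.03 ± 0.21, adjusted p = 0.000138). Ccl5 had only 2 to 23 reads in a library. Its TAC and unstressed libraries overlapped in combined and in wild-type hearts, and did not overlap in the single ablations.

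Cxcl10, an interferon-induced ligand of Cxcr3, was lowest in wild-type unstressed hearts, as Cx3cl1 and Cx3cr1 were. It had 15, 14, 14 and 13 reads in wild-type TAC hearts, against 2, 6, 2 and 0 reads in wild-type unstressed hearts (2.21 ± 0.51, adjusted p = 0.0011). In unstressed hearts it had 5, 12, 10 and 12 reads with combined ablation (1.85 ± 0.53 over wild type, adjusted p = 0.01) and 10, 13 and 11 with PKCδ ablation (2.21 ± 0.55, adjusted p = 0.0173). The counts are small, and these comparisons share the wild-type unstressed libraries.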
